A study of Mus musculus with 16 samples.

Results

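Polysome-associated mRNA of activated CD4+ T cells was compared between 2 sorted subsets, cells that express the transcription factor Foxp3 (T_Foxp3+) and cells that do not (T_Foxp3−). The comparison used 4 of the 16 arrays of the series, chosen by their labels alone: arrays 14 and 16 of T_Foxp3+ cells and arrays 10 and 12 of T_Foxp3− cells, with 16475 genes on each. Female C57BL/6 mice of 6 to 12 weeks, with a GFP reporter knocked into the Foxp3 gene, gave the cells of both groups, which were taken from spleen and lymph nodes and sorted on CD4 and GFP to a purity above 97%, so that T_Foxp3− cells are all GFP-negative CD4+ cells. Culture lasted 36 h in both, with coated anti-CD3 and anti-CD28 (5 µg/ml) and human IL-2 (100 U/ml). Cycloheximide (100 µg/ml) was given to both to stop ribosomes in place. Only mRNA carrying at least 3 ribosomes was measured. The 2 arrays of a group are biological duplicates by the study's methods, and p-values measure the spread between them. The labels place the arrays of the activated subsets in separate runs of array names, so subset and array series cannot be told apart in any result that follows, and the number of cells behind each array cannot be separated from the RNA content per cell.

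An mRNA in the polysome fraction is being read by several ribosomes at once, so its level there depends both on how much of the mRNA the cell holds and on how readily it is loaded. T_Foxp3+ cells are the regulatory T cells that restrain other lymphocytes, through inhibitory receptors, consumption of IL-2, adenosine production and suppressive cytokines. T_Foxp3− cells are the conventional helper cells, which after antigen receptor and CD28 stimulation enlarge, secrete cytokines and divide.

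The sorted subsets were checked against their markers. Foxp3 itself had log2 intensities of 9.42 and 10.76 in T_Foxp3+ cells, against 6.85 and 5.26 in T_Foxp3− cells. All 6 general T cell markers lay above the median of every one of the 4 arrays, and none of the 6 was called. Of 15 myeloid markers 1 was called higher in T_Foxp3+ cells, Cd68, and of 7 erythroid and platelet markers 1, Epor, while none of the 10 B cell, 9 CD8 T and NK cell and 13 stromal markers was called. The mean log2 level over the stromal markers was 4.85 and 4.80 in T_Foxp3+ cells, against 4.06 and 4.08 in T_Foxp3− cells. Over the erythroid and platelet markers it was 4.98 and 4.80 in T_Foxp3+ cells, against 4.06 and 4.01 in T_Foxp3− cells. Over the B cell markers it was 4.62 and 4.58 in T_Foxp3+ cells, against 4.0 and 3.95 in T_Foxp3− cells. Arrays were separated toward higher values for 9 of 13 stromal, 5 of 7 erythroid and platelet and 5 of 10 B cell markers. They were so for 6 of 15 myeloid and 4 of 9 CD8 T and NK cell markers, against 35.9% of all genes. The medians of the 4 arrays lay between 4.848 and 5.013, so these lists sat near or under the array medians, and their part in the gene results was not tested. The 66 odorant and vomeronasal receptor genes, which T cells do not use, had a median difference of 0.26. Duplicate arrays correlated across genes at 0.887 in T_Foxp3+ cells and at 0.945 in T_Foxp3− cells, and 1680 genes lay over 3-fold apart between the duplicates of T_Foxp3+ cells, against 903 genes between those of T_Foxp3− cells.

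Activated T_Foxp3+ cells held more polysome-associated mRNA of 223 genes and less of 632 genes than activated T_Foxp3− cells, at an adjusted p under 0.15 in limma, the threshold the study used for such comparisons. These are 1.35% and 3.84% of the 16475 genes tested, and counts of called genes in a list are read against these shares. Differences are given on the log2 scale as T_Foxp3+ minus T_Foxp3−, with the standard error (SE) of the fit, and a gene is said to have risen or fallen when it passed this threshold. Called genes rose by 2.42-fold to 63.6-fold and fell by 2.44-fold to 66.0-fold, and 759 of them differed by more than 3-fold. In every called gene the arrays of the 2 groups were separated by more than 2-fold. With no test, 473 genes were over 3-fold higher and 1306 over 3-fold lower. The arrays did not overlap in 5914 genes toward T_Foxp3+ cells (35.9%) and 3257 toward T_Foxp3− cells (19.8%). Counts of separated arrays in a list are read against these shares. The smallest adjusted p was 0.0883, so no gene passed 0.05, although 3012 genes had an unadjusted p under 0.05. The calls rested on the T_Foxp3− duplicates: without array 10 no gene was called (1759 at an unadjusted p under 0.05), without array 12 none (1614), without array 14 343 rose and 726 fell, and without array 16 360 rose and 811 fell. A fit over all 16 arrays called 3082 genes higher and 2256 lower.

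**Figure D1:**
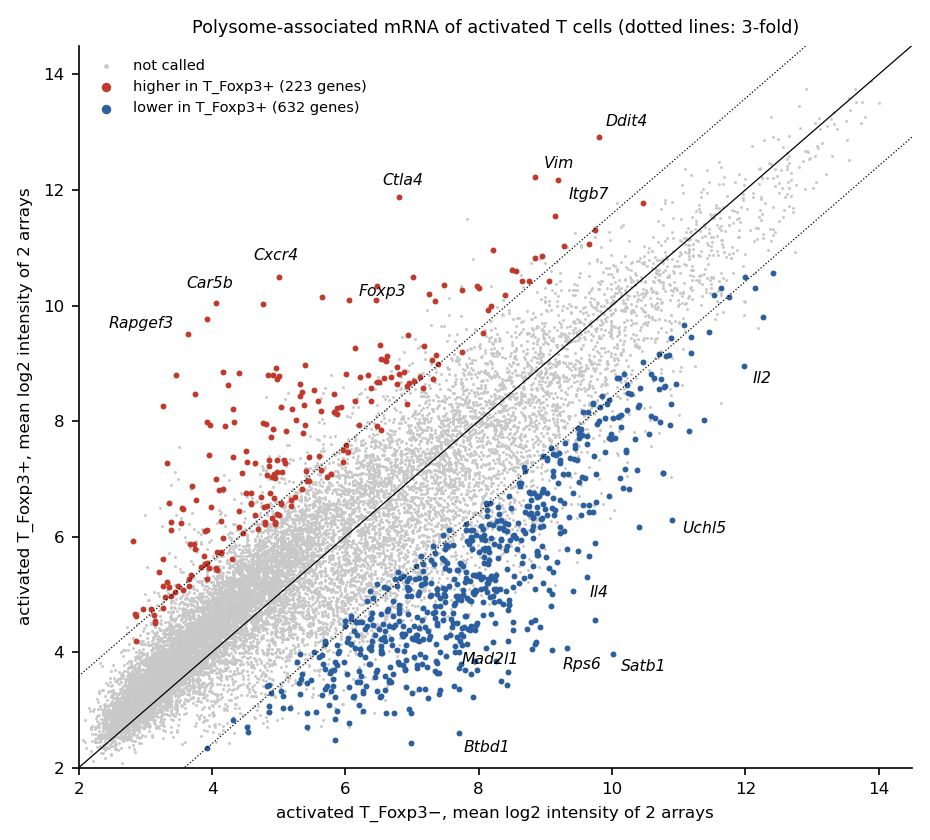
Mean log2 intensity of each gene in activated T_Foxp3+ cells (vertical axis) against activated T_Foxp3− cells (horizontal axis), polysome-associated mRNA, 2 arrays each, with the called genes in colour, the solid line at equality and dotted lines at 3-fold. The 223 genes in red lie above the upper dotted line or just under it and the 632 genes in blue reach down to Satb1 and Btbd1, with more of the blue genes at high levels in T_Foxp3− cells.

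The difference varied with the level of the gene. With genes divided into 4 bins of nearly equal size by mean level, the median difference in the lowest bin was 0.25, and 3 genes rose and 4 fell. In the next bin it was 0.38, with 40 and 70, in the one above 0.15, with 87 and 295, and in the highest −0.25, with 93 and 263. The interquartile range was 2.78 and 2.90 log2 units on the arrays of T_Foxp3+ cells, against 3.38 and 3.43 on those of T_Foxp3− cells. The median over all genes was 0.20, against 0.08 with the 4 arrays centred on their medians, 0.10 after quantile normalization and 0.01 after cyclic loess, and each list median is read against this shift. For 95 of the genes that rose and 268 of those that fell, the lower of the 2 group means was under all 4 array medians, so the fold of these genes depends on how low intensities are read.

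Genes of the regulatory T cell program formed the clearest group on the side of T_Foxp3+ cells. Of 31 measured genes of this signature 13 rose and 2 fell, and their median difference was 1.55, against 0.20 over all genes. The list was made of genes known from such cells, so its direction is not independent evidence. Ctla4, the inhibitory receptor that takes CD80 and CD86 from antigen-presenting cells, had values of 11.58 and 12.16 in T_Foxp3+ cells, against 5.94 and 7.69 in T_Foxp3− cells. It rose 33.2-fold (log2 difference 5.05, SE 0.68, adjusted p 0.0908), and Foxp3 rose 16.4-fold (4.04, SE 0.75, adjusted p 0.128). The arrays of the 2 groups did not overlap for either gene, with a gap of 3.89 for Ctla4 and 2.57 for Foxp3, although the duplicates within a group lay well apart.

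Members of the Ikaros family of zinc finger factors rose too, among them a partner of Foxp3, Eos. Ikzf4 (Eos) had 7.36 and 7.48 in T_Foxp3+ cells, against 3.92 and 3.98 in T_Foxp3− cells. Ikzf2 (Helios) had 7.96 and 9.64 in T_Foxp3+ cells, against 4.94 and 4.73 in T_Foxp3− cells. The duplicates of Ikzf4 were nearly equal, which gave it one of the smaller standard errors (0.27, adjusted p 0.0883), whereas the T_Foxp3+ arrays of Ikzf2 had an SD of 1.19 (n = 2; difference 3.96, SE 0.63, adjusted p 0.103). Flicr, a non-coding RNA transcribed next to Foxp3, rose 20.8-fold, with 8.32 and 8.92 in T_Foxp3+ cells, against 4.44 and 4.05 in T_Foxp3− cells.

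The ectoenzymes that make adenosine rose as a pair. Nt5e (CD73), which removes the last phosphate of AMP, had 9.01 and 8.66 in T_Foxp3+ cells, against 4.31 and 4.49 in T_Foxp3− cells. Entpd1 (CD39), which degrades ATP ahead of it, had 4.90 and 5.89 in T_Foxp3+ cells, against 3.38 and 3.03 in T_Foxp3− cells. Nt5e rose 21.6-fold and Entpd1 4.57-fold, both with separated arrays, and Entpd1 came from low intensities in T_Foxp3− cells. Gpr83, a G protein-coupled receptor of regulatory T cells, rose 13.7-fold and Epcam, an adhesion molecule better known from epithelium, 22.5-fold. Klrg1, an inhibitory lectin receptor, rose 7.89-fold, Gzmb, a cytotoxic granule protease, 3.37-fold, and Tgfb1, the suppressive cytokine, 3.42-fold, together with Furin, a protease that processes its precursor (5.41-fold). Against the direction of the list, Irf4, a transcription factor of effector differentiation, fell by 2.03 on the log2 scale and Rgs16, which shortens G protein signals, by 2.26.

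Some receptors for TNF family and cytokine ligands rose. Of 19 TNF receptor superfamily genes 3 rose and 1 fell, and of 28 cytokine receptor genes 3 rose and none fell. Over all genes 1.35% rose and 3.84% fell. The list medians were 0.53 and 0.58, against 0.20 over all genes. Tnfrsf8 (CD30) had 8.98 and 8.32 in T_Foxp3+ cells, against 5.56 and 5.09 in T_Foxp3− cells, and its ligand gene Tnfsf8 had 3.72 and 4.27 in T_Foxp3+ cells, against 7.94 and 7.46 in T_Foxp3− cells. Receptor and ligand thus differed in opposite directions, the receptor by 3.33 and the ligand by −3.70 on the log2 scale. Tnfrsf1b (TNF receptor 2), a growth receptor of regulatory T cells, rose 6.74-fold and Tnfrsf9 (4-1BB), a costimulatory receptor, 5.34-fold.

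For other receptors the subsets lay closer together. Tnfrsf18 (GITR) had 12.64 and 12.34 in T_Foxp3+ cells, against 11.76 and 11.46 in T_Foxp3− cells, a difference of 0.88 that did not pass the test (adjusted p 0.254). Il2ra (CD25), the high-affinity chain of the IL-2 receptor, had 10.43 and 10.02 in T_Foxp3+ cells, against 9.55 and 9.75 in T_Foxp3− cells (0.57, adjusted p 0.388). Il2rb, the signalling chain that it works with, had 11.38 and 11.21 in T_Foxp3+ cells, against 9.58 and 9.91 in T_Foxp3− cells. Of the 2 chains, Il2rb was thus the one that passed the test (2.93-fold, adjusted p 0.134). The decoy receptor Il1r2, which binds IL-1 without signalling, rose 15.6-fold, the interferon-γ receptor chain Ifngr1 5.78-fold and Icos, a costimulatory receptor of the CD28 family, 5.10-fold.

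Homing and adhesion genes included some of the largest differences. Of 30 such genes 4 rose and none fell, against 1.35% and 3.84% of all genes, with a median difference of 0.56 (0.37 after cyclic loess). The chemokine receptor Cxcr4, which holds cells in bone marrow and follicles, had 10.38 and 10.62 in T_Foxp3+ cells, against 5.50 and 4.49 in T_Foxp3− cells, and rose 45.4-fold. S1pr1, the sphingosine phosphate receptor that lymphocytes use to leave lymph nodes, had 8.68 and 8.26 in T_Foxp3+ cells, against 3.13 and 4.35 in T_Foxp3− cells, and rose 26.6-fold. Cd69, the activation antigen that pulls S1pr1 from the surface, ran the other way, with 2.94 and 5.45 in T_Foxp3+ cells, against 8.35 and 8.53 in T_Foxp3− cells (−4.24, SE 0.89, adjusted p 0.149).

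Both chains of one mucosal integrin were higher. Itgae (CD103) had 8.87 and 8.83 in T_Foxp3+ cells, against 4.35 and 3.98 in T_Foxp3− cells. Itgb7, its β chain, had 12.26 and 12.08 in T_Foxp3+ cells, against 9.68 and 8.69 in T_Foxp3− cells. The arrays were separated for both, and Itgae rose 25.7-fold and Itgb7 7.91-fold. Selplg, the selectin ligand PSGL-1, rose 3.98-fold and Ccr8, a chemokine receptor of skin-homing and regulatory T cells, 4.35-fold.

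Genes of cyclic nucleotide and kinase signalling stood among the 10 largest increases. Rapgef3 (EPAC1), a guanine nucleotide exchange factor that is switched on by cAMP, had 9.64 and 9.37 in T_Foxp3+ cells, against 3.71 and 3.57 in T_Foxp3− cells. Pde2a, a phosphodiesterase that degrades cAMP and is stimulated by cGMP, had 10.18 and 9.87 in T_Foxp3+ cells, against 4.26 and 5.25 in T_Foxp3− cells. All 4 values of T_Foxp3+ cells lay more than 4 log2 units above those of T_Foxp3− cells, and Rapgef3 rose 58.4-fold (SE 0.29, adjusted p 0.0883) and Pde2a 38.4-fold. Akap13, an anchor for protein kinase A, rose 5.62-fold. Pde2a and Akap13 were the 2 genes that rose of the 35 in the cAMP and protein kinase A list, which does not hold Rapgef3. In that list 1 gene fell and the median was 0.29 (0.07 after cyclic loess). Over all genes 1.35% rose and 3.84% fell.

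The PI3K, AKT and mTOR list had 3 of 33 genes higher and none lower, against 1.35% and 3.84% of all genes. Its median was 0.67 (0.40 after cyclic loess). Sgk1, a serine kinase of this pathway that regulates ion channels and FOXO factors, had 10.09 and 9.44 in T_Foxp3+ cells, against 3.84 and 4.01 in T_Foxp3− cells. Ddit4 (REDD1), an inhibitor of mTOR complex 1, had 13.15 and 12.70 in T_Foxp3+ cells, against 9.17 and 10.45 in T_Foxp3− cells. With no overlap of arrays, Sgk1 rose 57.5-fold and Ddit4 8.65-fold. Txnip, which limits glucose uptake, rose 7.99-fold and Tec, a kinase of antigen receptor signalling, 13.1-fold. Of genes in no list, Car5b, a mitochondrial carbonic anhydrase, rose 63.6-fold, the largest increase of any gene, and Cpe, a carboxypeptidase of prohormone processing, 40.3-fold. Both had separated arrays. Car5b had 9.67 and 10.44 in T_Foxp3+ cells, against 4.82 and 3.30 in T_Foxp3− cells.

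Structural genes formed a further group. Of 68 genes of actin and the cytoskeleton 10 rose and 4 fell, the highest number of increases of any list beside the regulatory signature, with a median near 0 (0.08, and −0.04 with arrays centred on their medians). Vim (vimentin), an intermediate filament protein, had 12.15 and 12.31 in T_Foxp3+ cells, against 9.21 and 8.49 in T_Foxp3− cells, and rose 10.4-fold. Of the S100 genes, which encode small calcium-binding proteins, the 3 chosen for this group rose, whereas those among the myeloid markers were not called. S100a4 had 10.25 and 10.41 in T_Foxp3+ cells, against 7.51 and 5.42 in T_Foxp3− cells, and S100a6 had 10.34 and 10.65 in T_Foxp3+ cells, against 7.80 and 6.24 in T_Foxp3− cells. Their T_Foxp3+ duplicates were close and their T_Foxp3− duplicates far apart, with array 12 the lower. Of 4 annexins, calcium-dependent membrane binders, Anxa2 rose 4.60-fold and Anxa6 by 2.12 on the log2 scale. Tubb6, a β-tubulin, rose 12.4-fold, whereas Dock11, an exchange factor for the GTPase CDC42, fell by 4.41.

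**Figure D2:**
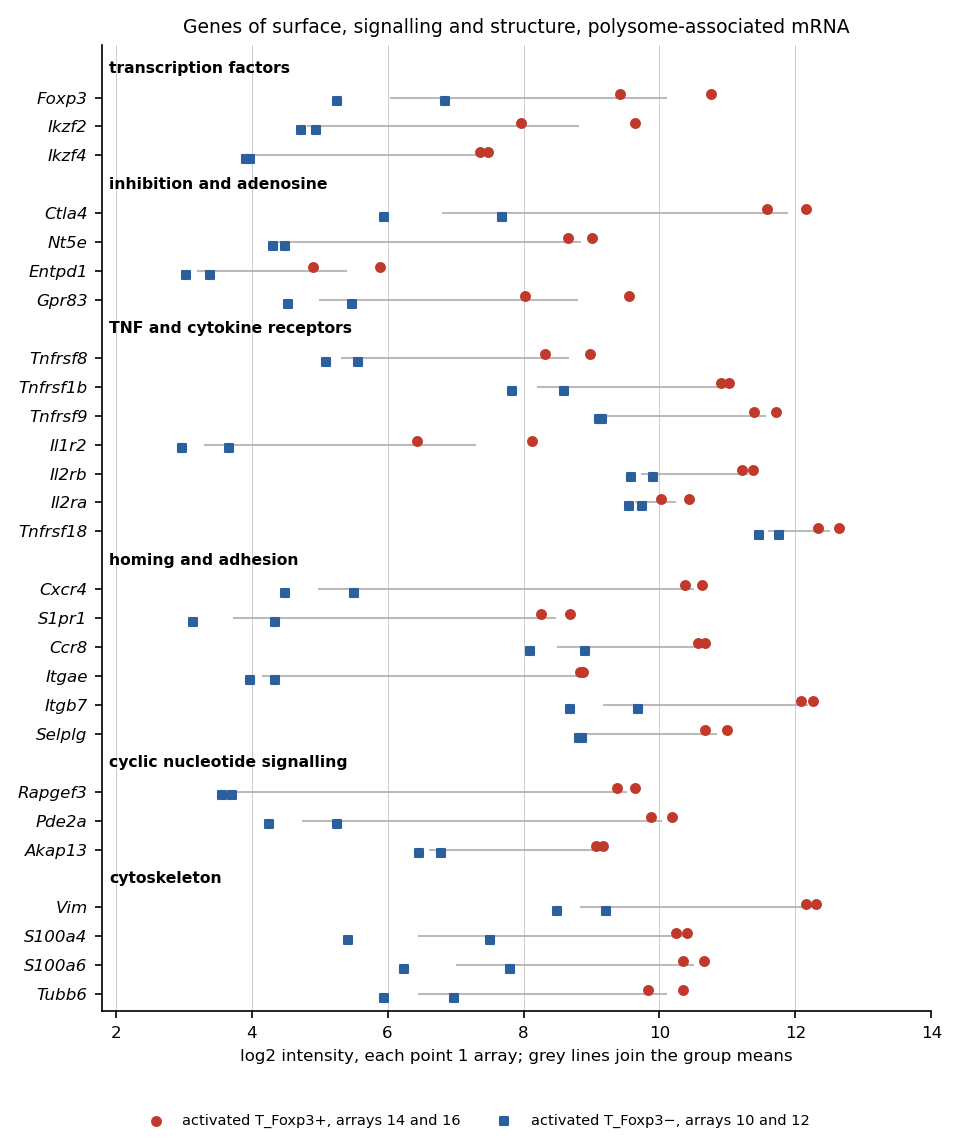
Log2 intensity on each of the 4 arrays (horizontal axis) for 27 genes of surface, signalling and structure, with activated T_Foxp3+ cells as red circles above activated T_Foxp3− cells as blue squares, and grey lines between group means. The circles lie right of the squares for each gene, far apart for Rapgef3 and Cxcr4 and close for Il2ra and Tnfrsf18, the 2 genes shown that were not called.

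Cytokine genes were mainly lower in T_Foxp3+ cells. Of 36 cytokine and chemokine genes 8 fell and 1 rose, and the median was −1.09. The arrays of 21 genes were separated toward lower values, against 19.8% of all genes. Il2, the T cell growth factor that regulatory T cells consume, had 9.40 and 8.49 in T_Foxp3+ cells, against 11.88 and 12.07 in T_Foxp3− cells, and fell by 3.03 (SE 0.41, adjusted p 0.0908). Il4, the cytokine of type 2 help, had 5.33 and 4.78 in T_Foxp3+ cells, against 9.87 and 8.97 in T_Foxp3− cells, and fell by 4.37. Both T_Foxp3+ arrays lay under both T_Foxp3− arrays for each, and Il2 was still above the array medians in T_Foxp3+ cells.

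Growth factors of myeloid cells followed. Il3 had 6.48 and 6.28 in T_Foxp3+ cells, against 9.29 and 8.78 in T_Foxp3− cells, and Csf2 (GM-CSF) had 4.95 and 6.12 in T_Foxp3+ cells, against 9.20 and 8.11 in T_Foxp3− cells. No arrays overlapped, and Il3 fell by 2.65 and Csf2 by 3.12. Lif, a cytokine of the IL-6 family, fell by 2.61 and Il24, of the IL-10 family, by 3.04. Fgf2, a fibroblast growth factor outside the list, fell by 4.79, with 3.15 and 4.15 in T_Foxp3+ cells, against 7.84 and 9.03 in T_Foxp3− cells. Ifng, the cytokine of type 1 help, could not be called, since the T_Foxp3+ duplicates lay at 9.30 and 4.76, against 10.58 and 11.21 in T_Foxp3− cells (−3.86, SE 1.57, adjusted p 0.296). The suppressive cytokine Il10 had 7.06 and 7.72 in T_Foxp3+ cells, against 6.16 and 3.87 in T_Foxp3− cells (2.37, adjusted p 0.261).

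Of 37 regulators of naive and conventional T cells 3 fell and 2 rose, with a median of 0.05 (−0.08 with arrays centred on their medians). Arrays were separated toward higher values for 10 and toward lower values for 9, against 35.9% and 19.8% of all genes. The 3 that fell were the transcription factors Satb1, Tbx21 and Zeb1. Satb1, a chromatin organizer that Foxp3 represses in regulatory T cells, showed the largest decrease of any gene, with 4.74 and 3.20 in T_Foxp3+ cells, against 10.44 and 9.58 in T_Foxp3− cells (−6.05, SE 0.65, adjusted p 0.0883). Tbx21 (T-bet), the factor of type 1 helper cells, had 8.01 and 6.19 in T_Foxp3+ cells, against 10.83 and 10.70 in T_Foxp3− cells. Zeb1, a zinc finger repressor, had 4.09 and 3.59 in T_Foxp3+ cells, against 7.15 and 8.71 in T_Foxp3− cells. Tbx21 fell by 3.66 and Zeb1 by 4.09, and no T_Foxp3+ array reached a T_Foxp3− array. Maf, a factor of IL-10 and IL-4 production, went the other way and rose 5.40-fold.

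Of 34 immediate early and feedback genes of MAP kinase signalling, 5 fell and 1 rose, with a median of 0.18 (−0.02 after cyclic loess). Arrays were separated toward higher values for 10 and toward lower values for 10, against 35.9% and 19.8% of all genes. Atf3, a stress-induced repressor, fell by 3.25, Klf6 by 2.22 and Klf10, a target of TGF-β, by 2.62, and Ier5 rose by 2.16. Jak2, the kinase below several cytokine receptors, fell by 3.94 (3.84 and 3.76 in T_Foxp3+ cells, against 7.84 and 7.64 in T_Foxp3− cells) and was the only called gene of 23 in the JAK, STAT and SOCS list. Neither direction was called for any of the 24 NF-κB pathway genes.

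Genes of cell division were lower in T_Foxp3+ cells and none of them was called higher. Of 92 mitosis genes 15 fell, and the median was −1.18. Arrays were separated toward lower values for 54 and toward higher values for 4, against 19.8% and 35.9% of all genes. Mad2l1, the spindle checkpoint protein that delays anaphase, had 3.86 and 4.23 in T_Foxp3+ cells, against 8.66 and 8.93 in T_Foxp3− cells, and fell by 4.75 (SE 0.31, adjusted p 0.0883). Cenpk, a centromere protein, had 3.71 and 4.57 in T_Foxp3+ cells, against 8.71 and 8.97 in T_Foxp3− cells, and fell by 4.70. The duplicates of both genes were less than 1 log2 unit apart in each group.

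Other called members belonged to several machines of mitosis. Among 20 centromere and kinetochore genes 3 fell, Cenpk, Mis12 and Spc25. Arrays were separated toward lower values for 14 of the 20, against 19.8% of all genes. Both condensin genes that fell, Smc4 and Ncapg2, encode subunits that compact chromosomes, and they fell by 3.29 and 2.99. Kif20b, a kinesin of cytokinesis, fell by 3.15 and Anapc10, a subunit of the anaphase-promoting complex, by 3.97, while Anapc4 of the same complex lay at −1.37 and did not pass the test (adjusted p 0.256). Mki67, the proliferation antigen, had 5.58 and 7.25 in T_Foxp3+ cells, against 8.52 and 8.48 in T_Foxp3− cells, and was also not called (−2.09, adjusted p 0.221).

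Promoters of mitosis genes commonly hold a CCAAT box and a cell cycle homology region (CHR), through which transcription is confined to late phases of the cycle. Those of Mad2l1, Spc25 and Kif20b are shown as called genes that differ in the motifs. They were not the mitosis genes of largest decrease as a set. RefSeq sequences (GRCm38.p6) of 250 bases before to 50 after the annotated start were searched on both strands for CCAAT and for TTTGAA, and matches are in capitals. The windows are chr6:66534971-66535270 (plus strand) for Mad2l1, chr2:69206164-69206463 (minus strand) for Spc25 and chr19:34922108-34922407 (plus strand) for Kif20b.
Mad2l1: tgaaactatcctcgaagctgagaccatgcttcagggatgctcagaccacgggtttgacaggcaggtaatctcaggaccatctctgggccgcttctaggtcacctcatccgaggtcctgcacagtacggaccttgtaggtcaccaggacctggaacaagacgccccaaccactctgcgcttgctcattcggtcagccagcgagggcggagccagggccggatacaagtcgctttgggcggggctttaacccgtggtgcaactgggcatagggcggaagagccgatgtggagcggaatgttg
Spc25: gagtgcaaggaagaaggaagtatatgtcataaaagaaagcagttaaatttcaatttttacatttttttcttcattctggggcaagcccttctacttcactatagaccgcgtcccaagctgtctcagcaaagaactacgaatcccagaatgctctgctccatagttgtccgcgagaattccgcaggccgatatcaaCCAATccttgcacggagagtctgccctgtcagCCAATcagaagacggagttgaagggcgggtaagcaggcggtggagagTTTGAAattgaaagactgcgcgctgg
Kif20b: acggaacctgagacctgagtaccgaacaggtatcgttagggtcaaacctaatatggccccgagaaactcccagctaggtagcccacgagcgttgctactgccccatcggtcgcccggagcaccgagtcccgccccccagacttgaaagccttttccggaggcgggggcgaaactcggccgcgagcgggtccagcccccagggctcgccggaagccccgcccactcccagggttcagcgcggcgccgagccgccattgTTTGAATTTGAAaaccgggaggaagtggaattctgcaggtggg

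Spc25 held 2 CCAAT boxes and 1 CHR, Kif20b held 2 adjacent CHR matches past its start, and Mad2l1, the member with the largest decrease, held none of these letters in the window. CCAAT occurred in the promoters of 67.1% of the 73 mitosis genes with a sequence, against 42.2% of all genes on the array that had one, and TTTGAA in 50.7%, against 15.3%. Of the 10 members that fell and had a sequence, 6 held CCAAT and 3 held TTTGAA. A match of letters describes the sequence and does not show a bound factor.

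DNA replication genes gave a similar picture, with 11 of 53 lower, none higher, and a median of −0.90. The decrease was uneven among the complexes. Of the 6 subunits of the origin recognition complex, which marks where replication starts, 4 fell: Orc6 by 3.18, Orc4 by 2.37, Orc5 by 2.15, and Orc1 fell by 2.20. None of the 6 subunits of the MCM2-7 helicase, which unwinds DNA at these origins, was called, and their differences ran from −1.0 to 0.25. Their median was −0.34, against −2.22 for the origin recognition complex. Arrays were separated toward lower values for 3 of the 6 helicase subunits and for 5 of the 6 origin subunits. The 1 helicase subunit separated toward higher values was Mcm5, with 11.10 and 11.23 in T_Foxp3+ cells, against 10.79 and 11.03 in T_Foxp3− cells. The difference between the complexes was not tested.

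Both primase subunits fell, which lay the RNA primers of new DNA strands. Prim1 had 5.16 and 5.04 in T_Foxp3+ cells, against 8.08 and 8.56 in T_Foxp3− cells, and Prim2 had 4.56 and 4.71 in T_Foxp3+ cells, against 7.56 and 8.02 in T_Foxp3− cells. Each fell by more than 3 log2 units, and the duplicates were close in both groups. Top1, the topoisomerase that relieves twisting ahead of the fork, fell by 4.84, Rfc4, a subunit of the clamp loader, by 3.74, and Pole2, a subunit of the leading strand polymerase, by 2.34. Gmnn (geminin), which blocks a second round of replication, fell by 2.65, and the chromatin remodeler Hells by 4.04.

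The promoter of Pole2 (chr12:69228141-69228440, minus strand) is shown as 1 of 2 promoters of called replication genes that held an E2F site, the other being Mcm8. The letters searched were TTTCCCGC and TTTGGCGC on both strands, and the capitals mark the match, here on the reverse strand.
Pole2: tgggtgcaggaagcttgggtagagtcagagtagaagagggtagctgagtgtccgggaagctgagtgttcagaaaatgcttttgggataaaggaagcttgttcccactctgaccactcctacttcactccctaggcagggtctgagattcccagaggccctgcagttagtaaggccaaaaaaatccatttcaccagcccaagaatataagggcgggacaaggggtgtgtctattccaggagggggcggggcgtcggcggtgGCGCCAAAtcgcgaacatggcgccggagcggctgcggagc
Such a site was found in 33.3% of the 45 replication genes with a sequence and in 2.8% of all genes on the array that had one, and in 2 of the 9 members that fell.

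Of 34 genes that control the G1 phase 7 fell and none rose, against 3.84% and 1.35% of all genes. The median was −0.44 (−0.26 after cyclic loess, −0.19 after quantile normalization). Arrays were separated toward lower values for 15 and toward higher values for 7, against 19.8% and 35.9% of all genes. Ccne1 (cyclin E1), which drives entry into S phase, had 8.06 and 7.46 in T_Foxp3+ cells, against 9.39 and 9.70 in T_Foxp3− cells, and fell by 1.79 (SE 0.36, adjusted p 0.140). Skp2, the ubiquitin ligase subunit that removes the cell cycle inhibitor p27, fell by 2.65, Cdk7, the kinase that activates other cyclin-dependent kinases, by 3.22, and E2f6, a repressor of the E2F family, by 4.28. Ccnd3, a D cyclin of early G1, had 9.45 and 8.38 in T_Foxp3+ cells, against 9.61 and 9.26 in T_Foxp3− cells (−0.52, adjusted p 0.564), and its arrays overlapped.

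Lists of the protein synthesis machinery had medians under that of all genes. Of 46 initiation and elongation factors 5 fell and none rose, with a median of −0.60 (−0.33 after cyclic loess, −0.34 after quantile normalization). The median level of this list was 8.62 in T_Foxp3+ and 9.46 in T_Foxp3− cells. In the bin of highest level the median over all genes was −0.25, and 263 of 4115 genes fell. Eif4e, the cap-binding initiation factor, had 5.61 and 4.50 in T_Foxp3+ cells, against 8.19 and 8.32 in T_Foxp3− cells, and fell by 3.20 (SE 0.46, adjusted p 0.0944). Eif3a, the largest subunit of the initiation factor that docks on the 40S ribosome, had 7.5 and 8.62 in T_Foxp3+ cells, against 10.55 and 10.76 in T_Foxp3− cells, and fell by 2.59. Etf1, the release factor that reads stop codons, fell by 2.45.

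Of 18 cytosolic ribosomal protein genes 3 fell, and the median was −0.88 (−0.71 after cyclic loess). The arrays of 16 were separated toward lower values, against 19.8% of all genes. Rps6, the ribosomal protein phosphorylated by S6 kinase, stood apart, with 3.86 and 4.20 in T_Foxp3+ cells, against 8.96 and 9.24 in T_Foxp3− cells (−5.07, SE 0.31, adjusted p 0.0883). Rpl17 had 7.44 and 8.12 in T_Foxp3+ cells, against 10.04 and 11.09 in T_Foxp3− cells, and Rpl14 had 8.73 and 8.75 in T_Foxp3+ cells, against 10.05 and 10.17 in T_Foxp3− cells. Rpl17 fell by 2.78 and Rpl14 fell by 1.37. Ribosomal protein genes have many near-identical processed pseudogenes, and only 18 were measured, so single members are uncertain.

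Genes of ribosome assembly were lower too. Of 53 genes of ribosome biogenesis and RNA polymerase I 12 fell, none rose, and the median was −1.20 (−1.0 after cyclic loess). Arrays were separated toward lower values for 34 and toward higher for none, against 19.8% and 35.9% of all genes. Mphosph10, a component of the particle that processes the small subunit RNA, had 4.78 and 5.12 in T_Foxp3+ cells, against 8.44 and 7.89 in T_Foxp3− cells, and fell by 3.21. Ncl (nucleolin), among the most abundant nucleolar proteins, had 10.38 and 9.90 in T_Foxp3+ cells, against 11.58 and 11.91 in T_Foxp3− cells, and fell by 1.61. Rrn3, which brings RNA polymerase I to its promoter, fell by 2.04 and Gnl3 (nucleostemin) fell by 2.20. In the mitochondrial ribosome 6 of 71 protein genes fell, with a median of −0.44 (−0.21 after cyclic loess). Mrpl47 fell most clearly (−3.52, SE 0.33, adjusted p 0.0883).

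Genes that process mRNA and protein followed the same direction. Of 58 splicing factors and hnRNPs 7 fell and none rose, against 3.84% and 1.35% of all genes. The median was −0.78 (−0.65 after cyclic loess, −0.57 after quantile normalization). Their median level was 8.35 in T_Foxp3+ and 9.36 in T_Foxp3− cells, and in the bin of highest level 263 of 4115 genes fell. Srsf6, a serine and arginine rich splicing factor, had 5.75 and 5.63 in T_Foxp3+ cells, against 8.96 and 8.83 in T_Foxp3− cells, and fell by 3.21, and Mbnl1, a regulator of alternative splicing, fell by 4.12. Of 49 genes of nuclear transport 5 fell, among them Kpnb1 (importin β1) by 1.55 and Xpo4 (exportin 4) by 4.09. The median of this list was −0.85 (−0.65 after cyclic loess). Of 28 chaperone genes 4 fell, including Cct4, a chaperonin subunit, by 1.73, and the median was −0.90 (−0.63 after cyclic loess).

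In the proteasome 4 of 40 genes fell and none rose, against 3.84% and 1.35% of all genes. The median was −0.79 (−0.52 after cyclic loess), at a median level of 9.51 in T_Foxp3+ and 10.3 in T_Foxp3− cells. Medians were −0.78 for ubiquitin ligases and cullins and −0.75 for deubiquitinases. Psmd14, the deubiquitinase of the proteasome lid, had 7.70 and 8.32 in T_Foxp3+ cells, against 11.21 and 11.56 in T_Foxp3− cells, and fell by 3.37. Uchl5, a proteasome-bound deubiquitinase, had 6.35 and 6.2 in T_Foxp3+ cells, against 10.87 and 10.94 in T_Foxp3− cells, and fell by 4.63 (SE 0.28, adjusted p 0.0883). Of 78 ubiquitin ligase and cullin genes 9 fell, among them Cul3 by 3.03 and Cul4b by 3.12, both scaffolds of ligase complexes. Of 49 deubiquitinases 6 fell and 1 rose, Usp11 (16.8-fold), whose T_Foxp3+ arrays lay at 6.84 and 9.14, against 4.26 and 3.58 in T_Foxp3− cells.

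Chromatin genes were called in both directions, with more of them lower. Of 69 histone-modifying enzymes 4 fell and 1 rose, with a median of −0.10 (0.04 after quantile normalization). Of 59 remodeler, Polycomb and DNA methylation genes 5 fell and 1 rose, with a median of −0.50. Over all genes 3.84% fell and 1.35% rose. Arrays were separated toward lower values for 21 and toward higher for 7 of the histone-modifying enzymes. For the remodeler list these counts were 27 and 10, against 19.8% and 35.9% of all genes. Eed, a core subunit of Polycomb repressive complex 2, had 7.71 and 7.22 in T_Foxp3+ cells, against 10.23 and 10.19 in T_Foxp3− cells, and fell by 2.75. Hdac6, a cytoplasmic deacetylase of tubulin, was the histone-modifying list's only increase, with 9.08 and 9.53 in T_Foxp3+ cells, against 6.37 and 6.67 in T_Foxp3− cells (6.89-fold, adjusted p 0.0883). The 279 numbered zinc finger genes had a median of 0.12 (−0.08 after cyclic loess), and 4 rose and 7 fell.

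**Figure D3:**
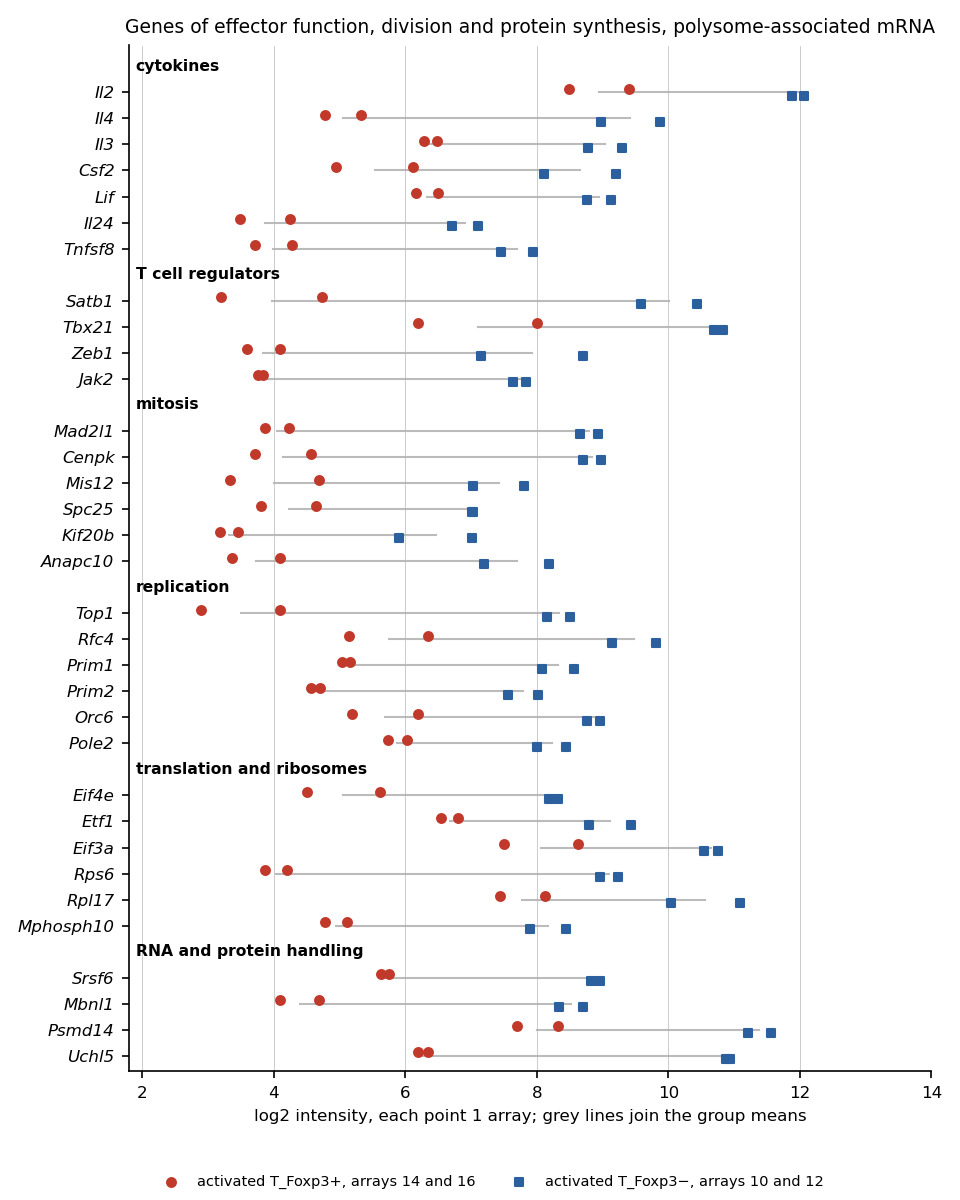
Log2 intensity on each of the 4 arrays (horizontal axis) for 33 genes of effector function, division, protein synthesis and RNA or protein handling, with activated T_Foxp3+ cells as red circles above activated T_Foxp3− cells as blue squares, and grey lines between group means. All 33 genes fell, and the circles lie left of the squares for each, with Satb1, Rps6 and Top1 the farthest apart.

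Metabolic genes differed little as lists. Of 26 cholesterol genes none was called, and their median was 0.05 (−0.08 with arrays centred on their medians). Of 25 genes of glucose uptake and glycolysis 1 fell, Pdk1, a kinase that inhibits pyruvate dehydrogenase (3.62 and 4.61 in T_Foxp3+ cells, against 7.73 and 7.77 in T_Foxp3− cells), and the median was −0.18 (0.11 after cyclic loess). Of 74 genes of oxidative phosphorylation and the tricarboxylic acid cycle 5 fell, with a median of −0.29 (−0.02 after cyclic loess, −0.09 after quantile normalization). Of 27 genes of fatty acid and lipid metabolism 2 rose and none fell, with a median of 0.18. Cpt1a, the gate of fatty acid entry into mitochondria, rose 3.30-fold, and Dgat1, which makes triglycerides, 8.74-fold. Of 43 interferon response genes 3 fell and none rose, and the median was 0.18 (−0.01 after cyclic loess). Arrays were separated toward higher values for 15 and toward lower values for 14, against 35.9% and 19.8% of all genes. Those that fell were Gbp2, a guanylate-binding GTPase, by 4.09, Ifih1, a sensor of double-stranded RNA, by 3.34 and Ifit2 by 1.75.

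**Figure D4:**
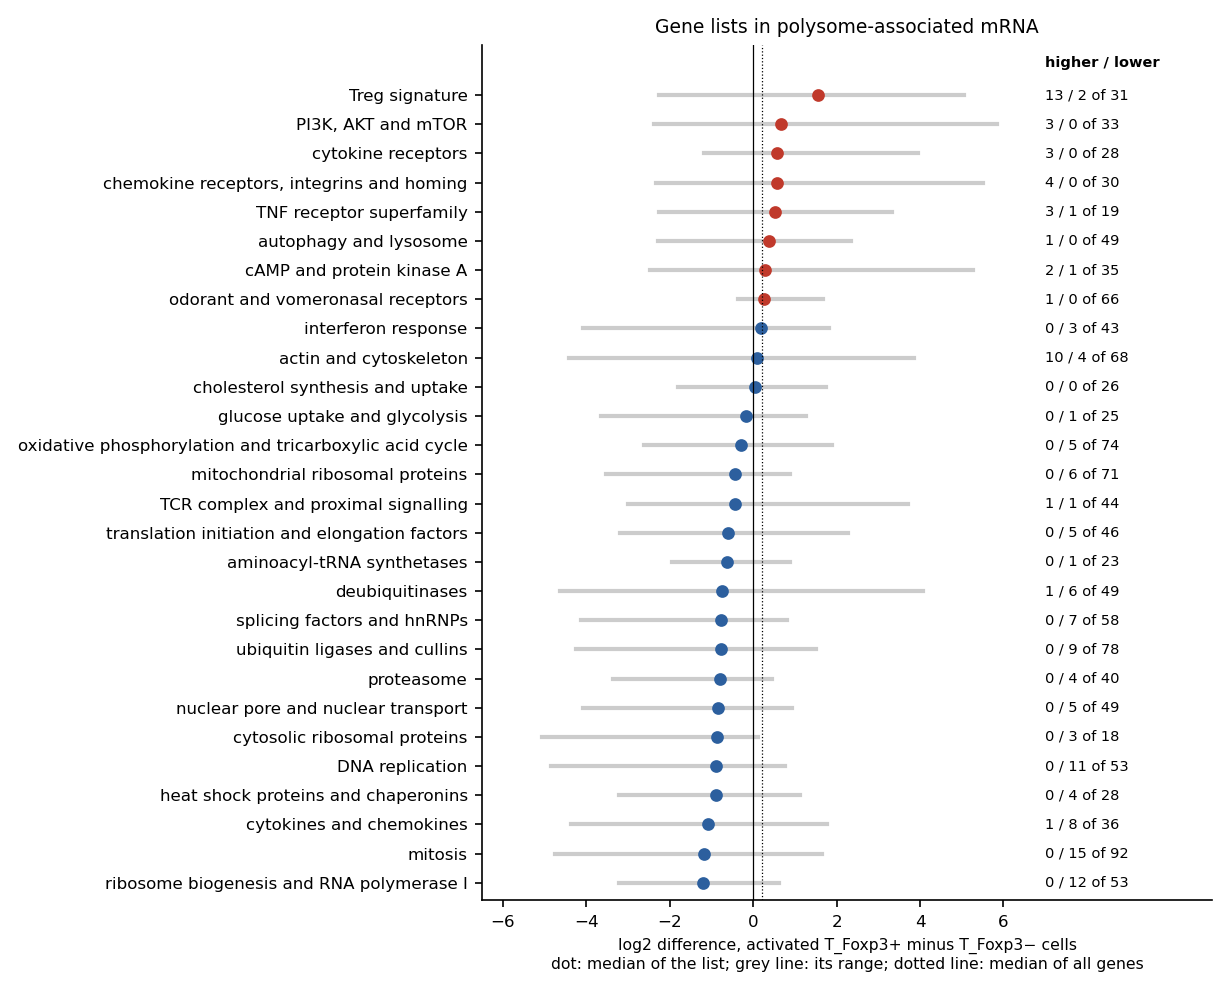
Median log2 difference of 28 gene lists in polysome-associated mRNA, activated T_Foxp3+ minus T_Foxp3− cells (dots), with the range of members (grey lines), the median of all genes (dotted line) and, at right, how many members rose and fell of those measured. The regulatory signature has the highest median (1.55), and ribosome biogenesis (−1.20), mitosis (−1.18) and cytokines (−1.09) the lowest, an order among these 3 that holds for the deposited values.

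The subset difference in polysome-associated mRNA was then set beside that in cytosolic mRNA of activated cells, 4 other arrays, which asks whether the polysome fraction adds to what the mRNA level shows. A fit over the 8 arrays of activated cells, with the difference of differences as the contrast, called none of the genes (0% of 16475) by limma, while 1373 had an unadjusted p under 0.05, and a fit over all 16 arrays called 631 higher and 601 lower. The smallest adjusted p in the 8-array fit was 0.268, for Klf6 among others. Klf6 fell by 2.22 in polysomes and lay at 1.31 in cytosolic mRNA, a difference of −3.53. Its cytosolic arrays thus ran in the opposite direction.

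Single genes fell into several kinds, given here as values. Cxcr4 differed by 5.50 in polysome-associated and 5.42 in cytosolic mRNA, Foxp3 by 4.04 and 4.55, Nt5e by 4.44 and 4.92, and Il2 by −3.03 and −3.58, with similar values in both fractions. Tec differed by 3.71 in polysome-associated and 0.91 in cytosolic mRNA. For Car5b the values were 5.99 and 1.34, but its cytosolic arrays overlapped, with 9.23 and 3.80 in T_Foxp3+ cells, against 6.37 and 3.97 in T_Foxp3− cells, so that the cytosolic value rests on array 15, the lower T_Foxp3+ array. Among the genes that fell, Grsf1, an RNA-binding protein of mitochondrial RNA granules, differed by −4.98 in polysome-associated and −1.27 in cytosolic mRNA, Top1 by −4.84 and −1.32, Mad2l1 by −4.75 and −1.73, and Eif4e by −3.20 and −1.24. Il2ra was the reverse case, with 0.57 in polysome-associated and 3.0 in cytosolic mRNA (difference −2.43, adjusted p 0.341). Of these differences none passed the test.

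Cells taken directly ex vivo gave the other comparison, since it asks which subset differences were present before culture. In polysome-associated mRNA the subset difference of activated cells was larger, or more positive, than that of ex vivo cells for 471 genes and smaller, or more negative, for 618, together 6.61% of the genes, in a limma fit over these 8 arrays. The ex vivo arrays hold RNA pooled from 2 experiments per sample, and only 118 genes in T_Foxp3+ cells and 44 genes in T_Foxp3− cells differed over 3-fold between their duplicates. Signal at the 3′ end of actin over that at its 5′ end, which grows as RNA or cDNA shortens, was 4.32 and 4.30 log2 units in ex vivo T_Foxp3+ cells, against 0.84 and 0.82 in ex vivo T_Foxp3− cells, and −0.40 and −0.26 in activated T_Foxp3+ cells, against −0.30 and −0.28 in activated T_Foxp3− cells. Its part in the comparison was not tested.

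Genes of regulatory T cell identity differed between the subsets in both states. Foxp3 differed by 4.04 in activated and 5.88 in ex vivo cells, Ctla4 by 5.05 and 4.31, and Klrg1 by 2.98 and 4.0, without a call for the change. The 31 genes of the signature had a median of 1.55 in activated and 1.97 in ex vivo cells. The change was called toward lower values for 8 of them and toward higher values for 3, against 618 and 471 of all 16475 genes. Il2ra differed by 0.57 in activated and 3.47 in ex vivo cells (adjusted p of the change 0.0287), and its ex vivo arrays lay at 7.17 and 6.94 in T_Foxp3+ cells, against 3.55 and 3.62 in T_Foxp3− cells. After activation the T_Foxp3− arrays, at 9.55 and 9.75, lay near those of T_Foxp3+ cells.

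For some of the homing and signalling genes described above the subset difference had opposite signs in the 2 states. Cxcr4 differed by 5.50 in activated and −0.76 in ex vivo cells, S1pr1 by 4.73 and −1.46, Sgk1 by 5.84 and −1.24, Itgb7 by 2.98 and −0.74, and Tec by 3.71 and −1.32. The change was called for each of these. Others kept their sign: Rapgef3 differed by 5.87 in activated and 2.31 in ex vivo cells, Itgae by 4.69 and 6.05, and Ccr8 by 2.12 and 2.43. Of the 30 homing and adhesion genes the change was called toward higher values for 4 and toward lower values for 1. The counts over all 16475 genes were 471 and 618. Sgk1 lay at 8.35 and 7.56 in T_Foxp3+ cells, against 9.14 and 9.25 in T_Foxp3− cells on the ex vivo arrays, and Cxcr4 at 7.07 and 6.58 in T_Foxp3+ cells, against 7.83 and 7.35 in T_Foxp3− cells. Ex vivo, both genes thus lay above the array medians in both subsets, with T_Foxp3− cells the higher, and the lowest values were those of activated T_Foxp3− cells.

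For cytokine, mitosis and replication genes the list medians were near 0 or above it before culture. The median subset difference of the cytokine list was −1.09 in activated and 0.30 in ex vivo cells, of mitosis genes −1.18 and 0.18, and of replication genes −0.90 and −0.04. In these lists the change was called toward lower values for 9 of 36, 26 of 92 and 13 of 53 genes, and for none toward higher values. Over all 16475 genes it was called toward lower values for 618 and toward higher values for 471. Il4 differed by −4.37 in activated and −0.03 in ex vivo cells, Mad2l1 by −4.75 and −0.17, Eif4e by −3.20 and −0.19, and Satb1 by −6.05 and −2.44. Satb1 was thus the only one of these 4 genes whose ex vivo difference passed 1 log2 unit.

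**Figure D5:**
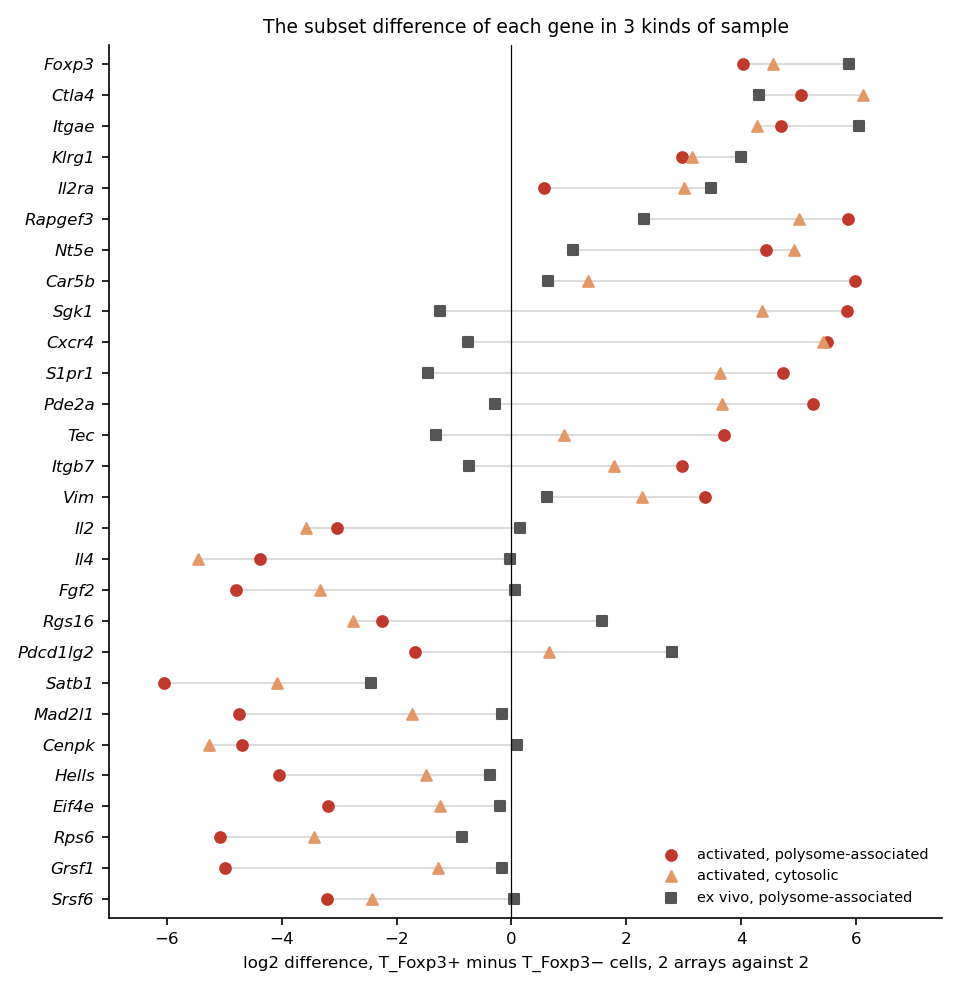
Log2 difference of T_Foxp3+ minus T_Foxp3− cells (horizontal axis) for 28 genes in activated polysome-associated mRNA (red circles), activated cytosolic mRNA (orange triangles) and ex vivo polysome-associated mRNA (grey squares), each 2 arrays against 2. Foxp3, Ctla4 and Itgae lie right of 0 in all 3, Sgk1, Cxcr4 and S1pr1 lie right of 0 only after activation, and Il4, Cenpk and Mad2l1 lie near 0 ex vivo.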

How the data were processed

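The deposited values are log2 intensities of Affymetrix arrays, which the authors summarised by RMA on Entrez gene probe sets after amplification with the Ovation Pico WTA system. They were used as deposited. The table held 16539 features, and after leaving out 64 control features 16475 genes remained, of which 15780 had a symbol. Levels of different genes are not comparable, since each probe set has its own response. No reads or depth apply, and the number of arrays limits the precision.

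Differences were fitted with limma 3.58.1 (lmFit and eBayes, R 4.3.3) on the 4 arrays, with Benjamini-Hochberg adjustment over all genes and a threshold of 0.15, after checking the scripts on simulated data. The differences between fractions and between states were fitted as contrasts over 8 arrays each. Alternatives were other sets of arrays, array weights, median centring, cyclic loess, quantile normalization, a filter on dim genes, an intensity trend, a threshold of 0.05 and leaving out each array.

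The members and lists were chosen with earlier results of these data known. Genes were named if the study names them for these cells, if they were among the 20 largest called differences with a symbol in a direction, among the 5 called members of smallest p in a list (or the largest 3 where fewer were called), among the 5 largest called in a test between fractions or states, or among the 10 of highest level in a direction. The rule gave 247 genes, of which 113 are named. Anxa2, Anxa6, Cd69, Csf2, Cul3, Entpd1, Furin, Gpr83, Gzmb, Ifng, Il10, Irf4, Kif20b, Mcm5, Mcm8, Mis12, Ncapg2, the Orc genes other than Orc6, Pole2, Rfc4, Rgs16, S100a4, S100a6, Smc4, Tgfb1, Txnip, Mt1 and Mt2, and the complexes within lists, were chosen after their values were seen.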

Additional observations from a re-analysis of the deposited data

Results flagged for a closer look

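The subset difference of the genes below, T_Foxp3+ minus T_Foxp3− cells in polysome-associated mRNA, was tested for a difference between activated and ex vivo cells, and each passed an adjusted p under 0.05 in limma (0.0216 to 0.0480, 2 arrays in each of the 4 groups). They number 45 of the genes named here, 17 with a more positive and 28 with a more negative difference after activation. Over all 16475 genes, 61 with a more positive and 98 with a more negative difference passed this threshold. The named genes were chosen partly by the size of such differences, so their share says nothing about genes in general. Values are the activated minus the ex vivo difference on the log2 scale.

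Among genes of movement, adhesion and structure, the change was 6.27 for Cxcr4, 6.19 for S1pr1, 3.72 for Itgb7, 2.53 for Selplg, 3.45 for Anxa6 and 2.75 for Vim. Among genes of signalling it was 7.08 for Sgk1, 5.54 for Pde2a, 5.03 for Tec, 3.56 for Rapgef3 and 2.18 for Akap13, and among genes of metabolism 5.36 for Car5b, 3.36 for Nt5e and 2.02 for Cpt1a. For Cybrd1, a ferric reductase, it was 3.65. Of the regulators Flicr had a change of 3.63 and Ikzf4 of 1.89.

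On the other side, cytokine and growth factor genes had changes of −3.18 for Il2, −2.95 for Il3, −4.34 for Il4, −3.65 for Il24, −3.14 for Lif and −4.85 for Fgf2. Receptor and signalling genes had −2.89 for Il2ra, −4.47 for Pdcd1lg2, −3.28 for Jak2, −3.83 for Rgs16 and −2.72 for Dock11, and transcription factors −3.93 for Atf3, −2.68 for Irf4, −2.00 for Klf6 and −2.44 for Klf10. Genes of division and replication had −4.57 for Mad2l1, −4.79 for Cenpk, −3.41 for Kif20b, −2.62 for Prim1, −3.67 for Hells and −2.39 for Skp2. Genes that handle RNA and protein had −4.82 for Grsf1, −3.25 for Srsf6, −3.92 for Xpo4, −3.36 for Mrpl47, −3.15 for Psmd14 and −3.64 for Cul4b. H2-T24, a nonclassical MHC class I gene, had −3.16.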

How the results depend on the processing

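Of the 143 genes named here 135 were called, and none of these 135 changed sign under any alternative run. All 135 lost the call without array 10, without array 12 and at an adjusted p under 0.05. Without array 14 and without array 16 the call was lost for 25 each, on the 8 arrays of activated cells for 16, with array weights for 13, after quantile normalization for 14, with an intensity trend for 13, after cyclic loess for 10, on 16 arrays for 3, with centred arrays for 3 and with only genes above the median level for 1. The counts moved most with the arrays that set the spread. Against 223 genes higher and 632 lower, a fit over the 8 arrays of activated cells called 514 and 855, array weights over them 573 and 929, and all 16 arrays 3082 and 2256, so that the share of higher calls rose by over 10 percentage points in each. An adjusted p under 0.05 left 0 and 0. Leaving out 1 array gave 0 to 360 higher and 0 to 811 lower. Centred arrays (161 and 729), cyclic loess (221 and 613), quantile normalization (246 and 478), only genes above the median level (180 and 633) and an intensity trend (182 and 482) stayed within 1.5 times. The polysome minus cytosolic comparison called 0 genes in either direction on 8 arrays, against 631 and 601 on 16 arrays, and leaving out 1 array gave 0 higher and 0 to 1 lower. The activated minus ex vivo comparison called 471 and 618 genes, against 601 and 689 on 16 arrays and 369 and 516 with array weights. Ccnd3, not called, ran from −1.06 without array 14 to 0.01 without array 16. The cause of these shifts was not tested. All 22 lists with a median past 0.5 kept their sign under each normalization and without each array. No paired analysis was possible because the labels number the arrays in a single run, so that no groups share a replicate number, and do not say which cytosolic and polysome arrays came from the same cells. The polysome minus cytosolic comparison is therefore unpaired, and the effect of pairing on it was not tested. With 2 arrays a group, and no background measure used here, small differences and low intensities are poorly resolved.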

Other observations

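Counts of lists outside the main account, here and in the next paragraph, are read against the shares over all genes, 1.35% higher and 3.84% lower. Of 49 autophagy and lysosome genes 1 rose in T_Foxp3+ cells and none fell, with a median difference of 0.37, and of 20 genes of the TGF-β pathway 1 rose, with a median of 0.35. Of 48 DNA damage response genes 4 fell (median −0.74), of 51 genes of mRNA decay and RNA-binding regulation 5 fell and 1 rose (median −0.43), and of 23 aminoacyl-tRNA synthetases 1 fell (median −0.64). Of 32 genes of the BCL-2 family and apoptosis 1 fell, and of 42 genes of the integrated stress and unfolded protein responses 2 fell and 1 rose.

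Of 44 genes of the T cell receptor complex and its proximal signalling 1 rose and 1 fell, with a median of −0.45, and of 24 costimulatory and inhibitory receptors 1 rose and 3 fell, with a median of 0.17. Metallothioneins, small metal-binding proteins, were higher in T_Foxp3+ cells: Mt1 rose by 3.16 and Mt2 by 3.58, and as closely related genes their signals are uncertain where probes are shared. Pdcd1lg2, the gene of the PD-1 ligand PD-L2, fell by 1.67 in activated T_Foxp3+ cells, and its ex vivo difference was 2.80.

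Of the 20 largest called differences in each direction, several belonged to genes of no group described above. Among increases these were Apbb3 (4.99), Cybrd1 (3.97), a ferric reductase, Tmem243 (3.95) and Niban2 (3.90). Among decreases they were Cfdp1 (−5.24), Pnrc2 (−5.20), a cofactor of mRNA decay, Fancf (−4.69), of the Fanconi anemia complex, and Cdc14a (−4.56), a phosphatase. Stk26, a kinase, lay at −4.49, Ifrd1 at −4.33, Commd6 at −4.33, Larp4b at −4.32 and H2-T24, a nonclassical MHC class I gene, at −4.29. The T_Foxp3+ duplicates of Pnrc2 lay at 3.10 and 5.99, against 9.35 and 10.14 in T_Foxp3− cells, so that they were far apart while the groups did not overlap.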
